A study of Mus musculus with 11 samples.

Results

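The genes described here are 9 sensors and adaptors of foreign or misplaced nucleic acid in the cytosol: Ddx58, Ifih1, Dhx58, Ddx60, Zbp1, Ifi204, Mavs, Tbk1 and Eif2ak2. They were chosen by symbol from the raw count table, which holds 16934 genes, and all 9 have a row in it and passed the filter on low counts. The libraries came from primary microglia, which are the brain's own macrophages, grown for 7 to 10 days from C57BL/6 pups aged 0 to 3 days and not passaged. Microglia kept for 6 h with cortical neurons loaded with labelled α-synuclein fibrils (0.1 µM for 16 h, then washed) make up 4 libraries, those kept for 6 h beside untreated neurons 3, and microglia alone 4. The neurons were 14 days in vitro, and α-synuclein fibrils are the aggregates found in Parkinson's disease. No group of microglia given fibrils without neurons was analysed here. Whether replicate libraries stem from different cultures or animals is not stated, so a p-value here covers the variation among these samples alone, which could be technical.

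Ddx58 (RIG-I) and Ifih1 (MDA5) are helicases that bind viral double-stranded RNA and pass the signal to Mavs, an adaptor on the outer membrane of mitochondria. Mavs and the DNA-sensing route through cGAS and Sting1 both lead to the kinase Tbk1, which phosphorylates Irf3 and so starts transcription of interferon genes. Interferon in turn raises several of these sensors, and microglia are among the brain cells that carry them.

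Promoter sequences were available for 6 of the 9 genes in the RefSeq table of build GRCm38.p6, and they are shown because the interferon-stimulated response element is the best known control element of this family. The core of that element was searched on both strands as GAAANNGAAA in windows of 250 bases before and 50 bases from the annotated start. It was found in 4 of the 6 members' windows, those of Ddx58, Ifih1, Ddx60 and Eif2ak2, and in 3.44% of all 32851 windows of that length. A second element, the gamma-activated site TTCNNNGAA, was found in 1 of the 6, Eif2ak2, where it did not overlap the first, and in 8.3% of all windows. The last 80 bases before the start and the 50 bases from it on are given on the gene's strand, with matches to GAAANNGAAA or its reverse complement in capitals.
Ddx58 (chr4:40239776-40239905, minus strand): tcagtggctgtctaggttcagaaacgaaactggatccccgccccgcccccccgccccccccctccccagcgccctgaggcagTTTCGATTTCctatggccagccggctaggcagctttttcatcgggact
Ifih1 (chr2:62646206-62646335, minus strand): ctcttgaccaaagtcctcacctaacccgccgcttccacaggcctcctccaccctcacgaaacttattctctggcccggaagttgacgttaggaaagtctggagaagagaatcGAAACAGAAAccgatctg
Ddx60 (chr8:61928007-61928136, plus strand): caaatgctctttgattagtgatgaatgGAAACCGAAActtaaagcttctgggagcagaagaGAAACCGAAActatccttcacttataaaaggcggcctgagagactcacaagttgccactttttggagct
Eif2ak2 (chr17:78882523-78882652, minus strand): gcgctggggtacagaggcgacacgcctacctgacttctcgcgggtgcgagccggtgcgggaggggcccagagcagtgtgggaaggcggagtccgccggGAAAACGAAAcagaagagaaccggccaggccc
Mavs (chr2:131233983-131234112, plus strand): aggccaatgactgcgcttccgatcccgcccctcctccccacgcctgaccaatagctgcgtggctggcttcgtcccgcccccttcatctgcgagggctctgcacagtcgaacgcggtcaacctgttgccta
The Ddx60 window held 2 matches, which begin 53 and 19 bases before the start. In the other 3 genes the match begins after the start, by 2 bases in Ddx58, 18 in Eif2ak2 and 32 in Ifih1. Mavs is shown as a member without a match, and Tbk1 had none either. These are matches of letters and no measurement of binding.

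On GRCm38.p6, whose coordinates are those of mm10, the genes lie on 7 chromosomes. On the minus strand are Ifih1 (chr2:62595618-62646255), Zbp1 (chr2:173206612-173218959), Dhx58 (chr11:100694884-100704271), Ifi204 (chr1:173747293-173767069), Tbk1 (chr10:121546455-121586794) and Eif2ak2 (chr17:78850504-78882572). Ddx60 (chr8:61928073-62037704) and Mavs (chr2:131234063-131248025) are on the plus strand. Dhx58 overlaps the antisense gene Dhx58os, and Eif2ak2 the opposite-strand Gm26637 and n-R5s29. Whether the counting used strand is not stated, so reads of such pairs cannot be told apart. Dhx58os, Gm26637 and n-R5s29 matched no row, so no level is given for them.

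Total counts ran from 8253070 to 14844071 with fibril-loaded neurons, with untreated neurons from 10925771 to 16802451, and from 10700940 to 14541179 in microglia alone. Levels are given as CPM, a gene's share of its library's counts after TMM scaling. Microglial markers were abundant in every library: 12 genes, among them Csf1r and C1qa, summed to 12750 to 19030 CPM with fibril-loaded neurons, 15110 to 18440 CPM with untreated neurons and 11140 to 12610 CPM in microglia alone. P2ry12 and Tmem119, markers of resting microglia, were low throughout and had their lowest group mean in microglia alone. P2ry12 averaged 6.88 CPM with fibril-loaded neurons, 9.7 CPM with untreated neurons and 2.28 CPM in microglia alone. For Tmem119 these means were 23.5, 40.9 and 9.32 CPM. A neuron list of 13 genes summed to 8.54 to 46.2 CPM with fibril-loaded neurons, 1.07 to 30.1 CPM with untreated neurons and 80.2 to 157 CPM in microglia alone, and Snap25 and Slc17a6 had no count in any group. An astrocyte list of 8 genes summed to 12.2 to 75.8 CPM with fibril-loaded neurons, 14.4 to 93.4 CPM with untreated neurons and 12.1 to 26.0 CPM in microglia alone. An oligodendrocyte-lineage list of 8 genes summed to 124 to 254 CPM with fibril-loaded neurons, 212 to 254 CPM with untreated neurons and 124 to 179 CPM in microglia alone, and 4 monocyte and neutrophil genes to at most 13.3 CPM in any library. The ribosomal RNA precursor Rn45s took 10.967% to 17.009% of counts with fibril-loaded neurons, 10.717% to 15.715% with untreated neurons and 14.001% to 24.796% in microglia alone. These marker sums thus differed in part between co-cultures and microglia alone along with the results below, and their part in those results was not tested. In bulk samples fewer cells of a type and less RNA per cell cannot be told apart.

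Beside untreated neurons all 9 genes had a positive log2 fold change against microglia alone, with a median of 1.35, against a median of -0.05 over the 11276 genes tested. Of all genes tested, 47.7% were positive. By label, microglia beside untreated neurons and microglia alone differ in the 6 h beside neurons. Ddx58 rose, and it was the 1 member of 9 that passed the threshold of 0.05 on the edgeR BH-adjusted p over all genes, where 0.461% of genes tested were higher and 0.177% lower. An unadjusted edgeR p below 0.05 was reached by 5 members, against 4.66% of genes tested on the higher side, and the CPM ranges of the groups lay apart for 5 members, against 4.9% of genes. No member was lower by any of these rules, against 5.67% of genes by the unadjusted p and 5.45% by the ranges.

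Among the RNA helicases, Ddx58 was at 273, 97.3 and 77.8 CPM in the 3 libraries with untreated neurons, against 25.3, 21.3, 46.7 and 29.6 CPM in the 4 of microglia alone. The groups did not overlap, and library 1 with untreated neurons stood far above the other two. The means were 149 ± 107 CPM with untreated neurons (SD, n = 3) and 30.7 ± 11.2 CPM in microglia alone (n = 4). Ddx58 thus had a log2 fold change of 2.28 (SE 0.50, edgeR BH-adjusted p = 0.0411). Without library 1 with untreated neurons it was 1.51 and did not pass (edgeR BH-adjusted p = 0.361). The call was also lost without library 1, 2 or 4 of microglia alone, where the log2 fold change stayed between 2.14 and 2.26, and it held in 3 of the 7 fits that left out 1 library. It was lost as well with the 2 groups only, in limma and at a mean of at least 5 CPM (adjusted p of 0.0665, 0.0516 and 0.0605). The Ddx58 gene spans chr4:40203777-40239825 on the minus strand.

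Dhx58 (LGP2), a helicase without signalling domains that modulates the other RNA sensors, was at 49.2, 34.3 and 59.6 CPM with untreated neurons, against 22.2, 17.2, 21.3 and 14.1 CPM in microglia alone. Every library with untreated neurons was above every library of microglia alone. At a log2 fold change of 1.35 Dhx58 did not pass (SE 0.57; edgeR BH-adjusted p = 0.418). Ifih1, at 28.0 to 40.9 CPM with untreated neurons and 6.94 to 57.7 CPM in microglia alone, had a log2 fold change of 0.57 (SE 0.65; edgeR BH-adjusted p = 0.943). Its groups overlapped through library 3 of microglia alone, and the other 3 of that group, at 6.94 to 20.8 CPM, were below every library with untreated neurons. The log2 fold change of Ifih1 was 1.44 without that library (edgeR BH-adjusted p = 0.454) and 0.26 to 1.44 over the fits that left out 1 library. Ddx60, a helicase described as an antiviral cofactor, was at 25.2 to 75.6 CPM with untreated neurons and 4.96 to 38.9 CPM in microglia alone. Its groups overlapped through 1 library of each, and its log2 fold change of 1.55 did not pass (SE 0.70, edgeR BH-adjusted p = 0.448).

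Zbp1, a sensor of Z-form nucleic acid that can trigger cell death through Ripk3, was at 40.2, 18.4 and 36.5 CPM with untreated neurons, against 7.28, 8.83, 5.67 and 1.34 CPM in microglia alone. Its groups lay apart, and its log2 fold change of 2.45 was the largest among the members in this comparison (SE 0.79, edgeR BH-adjusted p = 0.213), though it did not pass. Zbp1 passed in DESeq2 (BH-adjusted p = 0.0427). Ifi204, a mouse DNA sensor of the interferon-inducible Ifi200 family that acts through Sting1, was at 201, 124 and 227 CPM with untreated neurons, against 122, 32.3, 75.1 and 21.9 CPM in microglia alone. The lowest library with untreated neurons was just above the highest of microglia alone. Its log2 fold change of 1.55 did not pass (SE 0.48, edgeR BH-adjusted p = 0.186). Ifi204 passed with a block by library number, at 2.06 (edgeR BH-adjusted p = 0.0378), and with no low-count filter (0.00587). Reads of Ifi204 may be shared with other Ifi200 genes, so its level is uncertain.

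Mavs was at 33.9, 85.0 and 28.0 CPM with untreated neurons, against 2.04, 27.8, 21.9 and 27.3 CPM in microglia alone. The groups lay apart by a narrow margin, 28.0 against 27.8 CPM at the nearest libraries, and the log2 fold change of 1.31 did not pass (SE 0.68, edgeR BH-adjusted p = 0.515). Tbk1 was at 26.3 to 77.8 CPM with untreated neurons and 11.2 to 37.8 CPM in microglia alone, with 1 of 3 libraries above all of microglia alone (log2 fold change 0.88 with SE 0.68, edgeR BH-adjusted p = 0.794). Eif2ak2 (PKR), the kinase that halts translation on binding double-stranded RNA, was at 55.0 to 150.1 CPM with untreated neurons and 29.6 to 73.9 CPM in microglia alone (0.75, SE 0.44, edgeR BH-adjusted p = 0.607). Neither Tbk1 nor Eif2ak2 passed, and their groups overlapped.

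**Figure D1:**
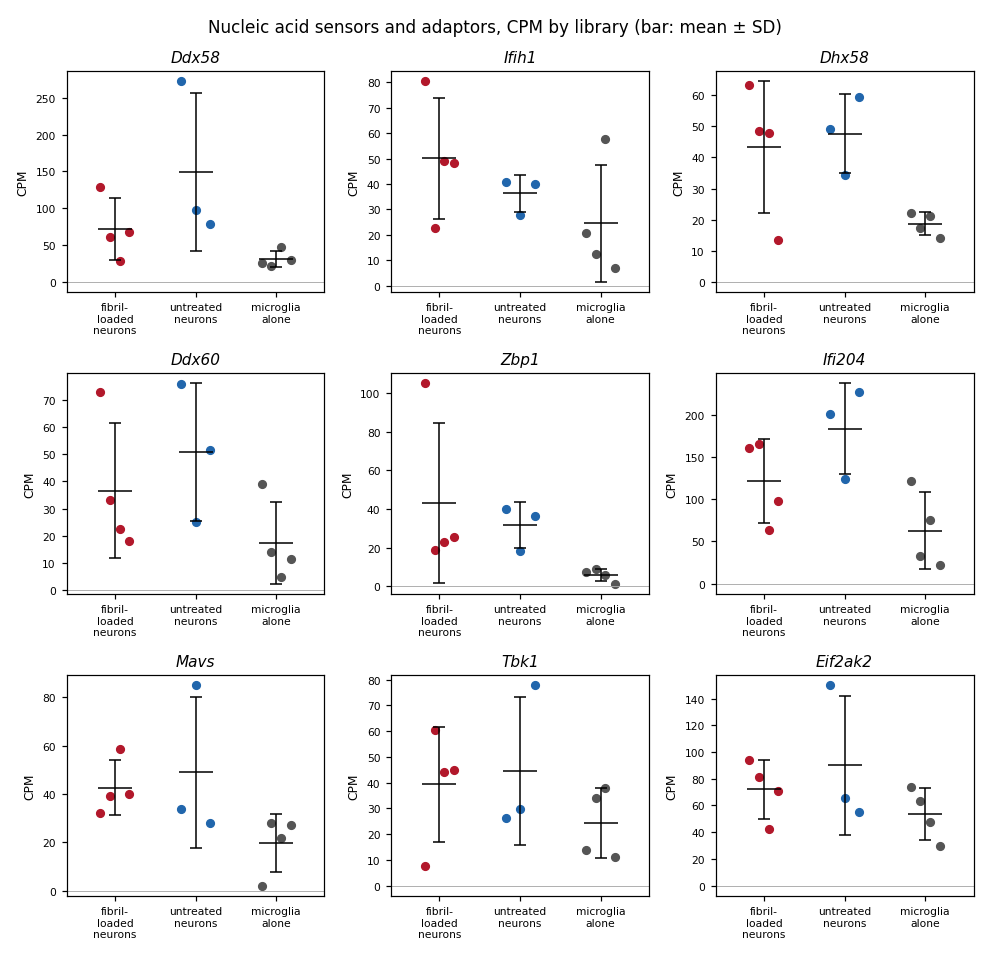
Level of each of the 9 genes in CPM (linear axis, counts scaled by library size) by group, with 1 point per library and a bar for the mean ± SD (n = 4 with fibril-loaded neurons, 3 with untreated neurons, 4 for microglia alone). Zbp1 in microglia alone stays at or below 8.83 CPM, under every co-culture library, while Ifih1 overlaps between all groups.

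In the contrast of fibril-loaded neurons with microglia alone the labels differ in both neurons and fibrils, whose parts cannot be told apart. All 9 log2 fold changes were again positive, as were 47.9% of all genes tested, with a median of 1.07 against -0.04 over all genes tested. This comparison shares the libraries of microglia alone with the one above, so the directions are not independent of it. No member passed the edgeR BH-adjusted threshold, where 0.266% of genes tested were higher and 0.0532% lower. An unadjusted edgeR p below 0.05 was reached by 4 members, Ddx58, Dhx58, Zbp1 and Ifi204, against 4.25% of genes on the higher side and 3.89% on the lower. Ranges lay apart for 2 members, Zbp1 and Mavs, both higher, against 2.7% of genes higher and 2.92% lower.

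Zbp1 was at 105, 18.7, 23.1 and 25.6 CPM with fibril-loaded neurons, against the 1.34 to 8.83 CPM of microglia alone. Library 1 with fibril-loaded neurons was over 4 times the level of the other 3, and yet each of those was above every library of microglia alone. The log2 fold change of Zbp1 was 2.899 (SE 0.77, edgeR BH-adjusted p = 0.141), and without that library it was 1.96 (edgeR BH-adjusted p = 0.582). With all libraries Zbp1 passed in DESeq2 (BH-adjusted p = 0.00598) and in edgeR with no low-count filter (0.0292). Mavs, at 32.2, 39.0, 58.8 and 40.0 CPM with fibril-loaded neurons against 2.04 to 27.8 CPM in microglia alone, had a log2 fold change of 1.11 (SE 0.64, edgeR BH-adjusted p = 0.796). Library 1 of microglia alone, with 26 counts of Mavs, was far below the other 3 of its group.

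Ddx58 was at 129, 60.5, 27.8 and 68.1 CPM with fibril-loaded neurons, against 21.3 to 46.7 CPM in microglia alone. Library 3 with fibril-loaded neurons fell inside the range of microglia alone, and the other 3 were above it. The log2 fold change of Ddx58 was 1.21 (SE 0.47, edgeR BH-adjusted p = 0.48). Dhx58 had the same log2 fold change to 2 decimals, 1.21 (SE 0.54, edgeR BH-adjusted p = 0.576), from 63.4, 48.7, 48.0 and 13.4 CPM with fibril-loaded neurons, of which library 4 was below all of microglia alone. Ifi204 was at 161, 166, 63.1 and 98.3 CPM with fibril-loaded neurons, of which 2 libraries were above all of microglia alone (log2 fold change 0.96 with SE 0.45, edgeR BH-adjusted p = 0.6). For the other 4 genes the groups overlapped. The log2 fold change was 1.03 for Ifih1 (22.6 to 80.4 CPM with fibril-loaded neurons), 1.07 for Ddx60 (18.1 to 72.6 CPM), 0.70 for Tbk1 (7.57 to 60.4 CPM) and 0.43 for Eif2ak2 (42.3 to 93.8 CPM), with edgeR BH-adjusted p of 0.812, 0.846, 1 and 1.

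Between the co-cultures, whose labels differ in the loading of the neurons with fibrils, no member passed. No gene of the 11276 tested passed there (0% in either direction in edgeR). With fibril-loaded against untreated neurons 7 of the 9 log2 fold changes were negative and 2 positive, with a median of -0.20 against 0.00 over all genes. Of all genes tested, 49.8% were positive there. Ddx58 was the 1 member with an unadjusted edgeR p below 0.05, on the lower side, where 1.3% of genes lay (2.64% on the higher). It averaged 71.3 ± 42.1 CPM with fibril-loaded neurons (n = 4) and 149 ± 107 CPM with untreated neurons (n = 3), and 3 of the 4 libraries with fibril-loaded neurons were below all of those with untreated neurons. Its log2 fold change was -1.07, with an unadjusted 95% interval of -2.09 to -0.04 (edgeR BH-adjusted p = 1). Without library 1 with untreated neurons the log2 fold change of Ddx58 was -0.28. No member had ranges apart in this comparison, against 2.39% of genes higher and 2.3% lower.

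The intervals of the other members in this comparison were wide. That of Zbp1 ran from -1.18 to 2.07 around a log2 fold change of 0.45, and that of Ifih1 from -0.91 to 1.83 around 0.46. Around negative values, the interval was -1.58 to 0.40 for Ifi204 (log2 fold change -0.59), -1.92 to 0.98 for Ddx60 (-0.47) and -1.24 to 0.59 for Eif2ak2 (-0.32). For Mavs (-0.20), Tbk1 (-0.18) and Dhx58 (-0.14) it reached from -1.62 to 1.21, from -1.60 to 1.24 and from -1.33 to 1.06. For 4 of these genes, Zbp1, Mavs, Tbk1 and Dhx58, the interval holds a log2 difference of 1 in either direction, so the data do not show that the co-cultures were alike.

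**Figure D2:**
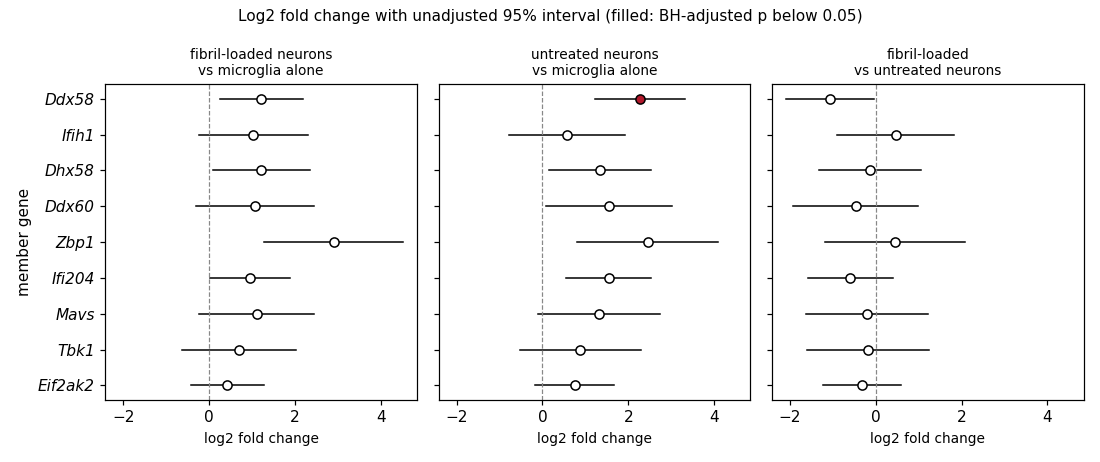
Log2 fold change of each of the 9 genes (points) with its unadjusted 95% interval (lines) in the 3 comparisons, on a shared axis. A filled point marks an edgeR BH-adjusted p below 0.05, which only Ddx58 with untreated neurons against microglia alone reached (2.28).

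Ordered by group mean, 7 of the 9 genes were highest with untreated neurons, then with fibril-loaded neurons, then in microglia alone: Ddx58, Dhx58, Ddx60, Ifi204, Mavs, Tbk1 and Eif2ak2. Zbp1 (43.1 ± 41.4 CPM with fibril-loaded neurons, 31.7 ± 11.7 with untreated neurons and 5.78 ± 3.23 in microglia alone) and Ifih1 (50.03 ± 23.7, 36.3 ± 7.24 and 24.5 ± 22.9 CPM in the same groups) were highest with fibril-loaded neurons. No difference between the co-culture means passed the test for any of the 9, and only Ddx58 with untreated neurons differed from microglia alone by the edgeR test over all genes.

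The members varied between libraries in different ways. The coefficient of variation within a group had a median over the 9 genes of 48.9% with fibril-loaded neurons, 49.7% with untreated neurons and 56.4% in microglia alone. It was lowest for Mavs (26.8%) with fibril-loaded neurons, Ifih1 (19.9%) with untreated neurons and Dhx58 (20.1%) in microglia alone, and highest for Zbp1 (96.1%), Ddx58 (71.9%) and Ifih1 (93.4%) in those groups. Library 1 with fibril-loaded neurons held the highest level of its group for 6 members and the lowest for 2, one of them Tbk1 at 7.57 CPM against 44.3 to 60.4 CPM in the other 3. That library also had the fewest genes with a count of all 11 (9157) and the largest Rn45s share of its group (17.009%), and the part of these in its levels was not tested. Library 1 with untreated neurons was highest of its group for 5 members, and library 4 of microglia alone was lowest of its group for 6. How often these libraries were highest or lowest over all genes was not counted.

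**Figure D3:**
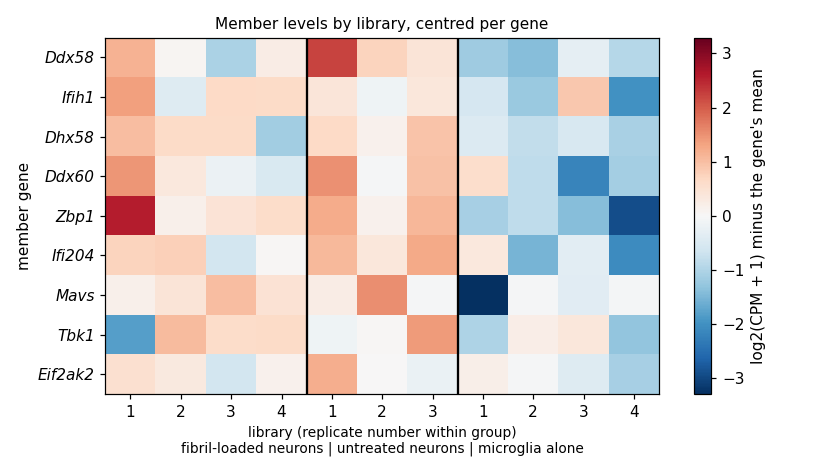
Level of the 9 genes in each of the 11 libraries as log2(CPM + 1) minus the gene's own mean (red above, blue below), with lines between the groups. Members can differ within a library: Tbk1 is at -1.81 in library 1 with fibril-loaded neurons, where Zbp1 is at 2.59.

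The profiles of single genes were set against the mean of the 9 centred profiles by their root-mean-square difference over the 11 libraries, as a description. Each member is itself part of that mean, which brings it nearer. Of the members, Dhx58 was nearest (0.46, rank 88 of 7536 genes), followed by Eif2ak2 (0.52), Ifi204 (0.55), Ddx58 (0.63) and Ifih1 (0.65). Ddx60 (0.74) and Zbp1 (0.81) were farther from that mean. Mavs (1.07) and Tbk1 (1.01) were about as far from it as a typical gene of at least 10 CPM, for which the median was 1.03. Among 7527 other genes the nearest were Cxcl16, a chemokine gene (0.27), the Ifi200 family gene Ifi207 (0.29), the fractalkine receptor Cx3cr1 (0.30), Oasl2, an interferon-induced gene of the oligoadenylate synthetase family (0.33), and the ubiquitin ligase gene Rnf114 (0.33). Of these, Cx3cr1 is also on the microglial marker list above. Nearest to Ddx58 alone were Mgat4a, a glycosyltransferase gene (0.37), Mitd1 (0.45) and Parp14 (0.51). They were nearer than any other member, of which Eif2ak2 was the closest (0.76).

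Partners in the pathway were taken from lists of known components. In the list of kinases and signalling partners, all 22 genes were tested, and 1 passed in each comparison with microglia alone, higher in both. It was Ikbke (chr1:131254600-131279601, minus strand), the kinase most closely related to Tbk1. Its gene overlaps the antisense genes Gm28913 and Gm28914, which matched no row. Ikbke was at 196, 177, 343 and 415 CPM with fibril-loaded neurons and 260, 255 and 289 CPM with untreated neurons, against 13.9, 11.01, 72.0 and 87.5 CPM in microglia alone. Every co-culture library was above every library of microglia alone. The log2 fold change of Ikbke against microglia alone was 2.62 with fibril-loaded neurons (SE 0.52, edgeR BH-adjusted p = 0.0201) and 2.54 with untreated neurons (SE 0.54, edgeR BH-adjusted p = 0.0277). The call held in 4 of 8 fits that left out 1 library with fibril-loaded neurons and in 4 of 7 with untreated neurons, with log2 fold changes of at least 2.21 in all of them. It was lost without library 1 or 2 of microglia alone in both comparisons, without library 3 or 4 with fibril-loaded neurons and without library 3 with untreated neurons. It was lost as well with the 2 groups only (edgeR BH-adjusted p = 0.102 with fibril-loaded and 0.11 with untreated neurons) and at a mean of at least 5 CPM (0.0564 and 0.0585). The median log2 fold change of the 22 genes was 0.58 with fibril-loaded and 0.63 with untreated neurons against microglia alone. Between the co-cultures none passed. The smallest p were those of Irf3, the factor that Tbk1 phosphorylates, and of the adaptor gene Traf2. Irf3 was at 41.0 ± 16.5 CPM with fibril-loaded and 19.1 ± 8.13 CPM with untreated neurons. Traf2 was at 24.1 ± 14.4 CPM with fibril-loaded and 3.26 ± 3.05 CPM with untreated neurons. It had 0 to 100 counts with untreated neurons, and its log2 fold change of 2.88 had an SE of 2.01.

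Of the list of DNA-sensing genes 19 were tested, and 1 rose with untreated neurons, another member of the Ifi200 family. Ifi203 was at 158, 63.8 and 156 CPM with untreated neurons, against 28.5, 34.4, 30.9 and 10.6 CPM in microglia alone (log2 fold change 2.27 with SE 0.53, edgeR BH-adjusted p = 0.0488). The groups did not overlap, and the call was lost in 6 of the 7 fits that left out 1 library, each but that without library 2 with untreated neurons. It was lost as well with the 2 groups only, in limma and at a mean of at least 5 CPM (adjusted p of 0.0717, 0.0516 and 0.0749). Ifi203 overlaps the same-strand gene Mndal, at a mean of 76.1 CPM over the libraries, so its level is uncertain. With fibril-loaded neurons none of the 19 passed, the smallest p being those of Ifi209 at 68.2 ± 52.4 against 10.7 ± 10.6 CPM in microglia alone (log2 fold change 2.67, edgeR BH-adjusted p = 0.107) and Ifi203 (1.84, edgeR BH-adjusted p = 0.144). The sensor gene Cgas had a log2 fold change of -0.44 and its adaptor Sting1 of 0.27 with untreated neurons against microglia alone, both at an edgeR BH-adjusted p above 0.9. The median over the 19 was 0.39 with fibril-loaded and 0.63 with untreated neurons.

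The list of other RNA sensors and their partners did not move as a group: of 17 tested genes 6 were positive with fibril-loaded and 8 with untreated neurons against microglia alone, with medians of -0.07 and -0.02. None passed. Tlr7 is the endosomal receptor for single-stranded RNA. Tlr7 was at 16.3 to 74.6 CPM with fibril-loaded neurons and 19.0 to 38.5 CPM with untreated neurons, against 40.6 to 128 CPM in microglia alone. The groups of Tlr7 overlapped with fibril-loaded neurons and not with untreated neurons, and its log2 fold changes were -1.09 with fibril-loaded neurons (edgeR BH-adjusted p = 0.595) and -1.67 with untreated neurons (edgeR BH-adjusted p = 0.251).

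**Figure D4:**
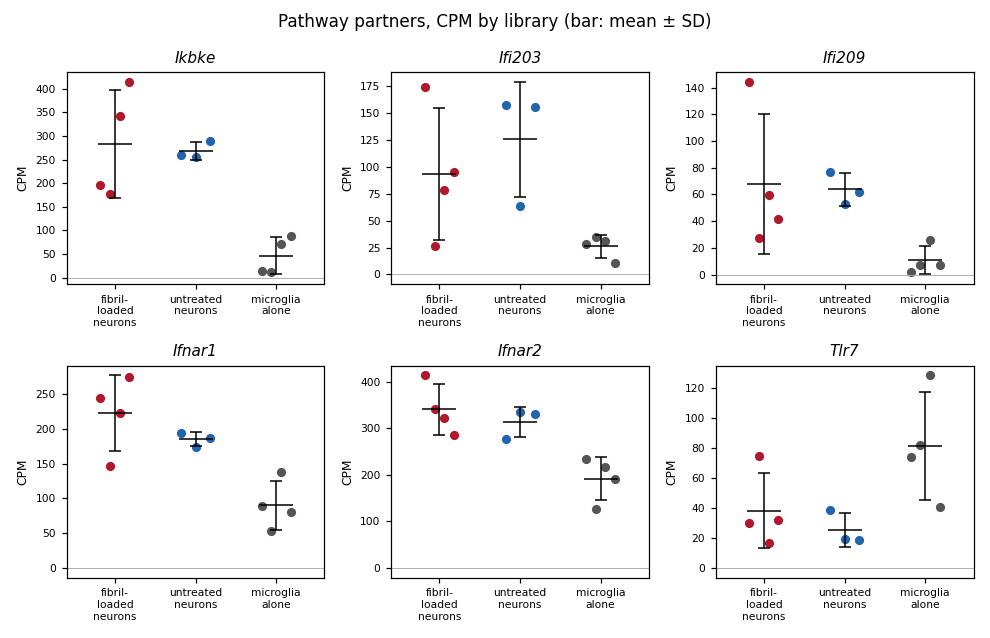
Level of 6 pathway partners in CPM (linear axis) by group, with 1 point per library and a bar for the mean ± SD (n = 4, 3 and 4 from left to right). Ikbke is above 177 CPM in each co-culture library and at or below 87.5 CPM in microglia alone, while Tlr7 has its highest group mean in microglia alone.

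Among restraining factors 19 genes were tested, and none passed in any comparison. With the smallest p against microglia alone, Usp18, which blocks the interferon receptor, was at 29.7 ± 28.4 CPM with fibril-loaded and 23.8 ± 10.2 CPM with untreated neurons, against 3.05 ± 2.78 CPM in microglia alone (edgeR BH-adjusted p = 0.382 and 0.389). The ubiquitin-editing gene Tnfaip3 was at 28.9 ± 13.9 CPM with untreated neurons, against 2.05 ± 2.40 CPM in microglia alone (edgeR BH-adjusted p = 0.394). With fibril-loaded neurons Tnfaip3 was at 6.32 ± 3.30 CPM. Counts in microglia alone were low, at 0 to 52 for Tnfaip3 and 0 to 79 for Usp18. Smurf1, a ubiquitin ligase gene, was at 37.7 ± 19.3 CPM with fibril-loaded neurons, against 14.3 ± 5.71 CPM in microglia alone (edgeR BH-adjusted p = 0.695). The list's median log2 fold change was 0.20 with fibril-loaded and 0.30 with untreated neurons.

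Of the 8 genes of the translation arm of Eif2ak2 none passed, and the medians were -0.13 and 0.03 against microglia alone. Atf4, the transcription factor made when translation is held back, was at 87.7 ± 28.8 CPM with untreated neurons, against 171 ± 16.2 CPM in microglia alone (edgeR BH-adjusted p = 0.253), and at 149 ± 37.6 CPM with fibril-loaded neurons. Ppp1r15b, a phosphatase subunit that releases the block, was at 67.1 ± 34.2 CPM with fibril-loaded and 74.4 ± 39.0 CPM with untreated neurons, against 24.0 ± 14.2 CPM in microglia alone (edgeR BH-adjusted p = 0.448 and 0.311). Its relative Ppp1r15a was at 44.7 ± 9.44 CPM with fibril-loaded neurons, against 25.1 ± 14.01 CPM in microglia alone (edgeR BH-adjusted p = 0.902).

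Interferon receptors and the factors they activate made up a list of 9 tested genes, none of which passed. The receptor chain Ifnar1 was at 147 to 275 CPM with fibril-loaded and 175 to 194 CPM with untreated neurons, against 53.5 to 137 CPM in microglia alone, and the groups did not overlap with microglia alone. Its log2 fold changes were 1.30 (SE 0.31, edgeR BH-adjusted p = 0.1) and 1.04 (SE 0.33, edgeR BH-adjusted p = 0.206). The other chain, Ifnar2, was at 285 to 414 CPM with fibril-loaded neurons, against 127 to 233 CPM in microglia alone (log2 fold change 0.83, edgeR BH-adjusted p = 0.275). The list's medians were 0.72 with fibril-loaded and 0.71 with untreated neurons. The interferon genes themselves, 21 symbols with Ifnb1 among them, matched no row and were not analysed here.

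With fibril-loaded against untreated neurons no gene of these lists passed, each at an edgeR BH-adjusted p of 1. On the higher side, the smallest p of their lists were those of the RNA helicase gene Dhx33, at 24.3 ± 5.74 CPM with fibril-loaded and 2.50 ± 2.42 CPM with untreated neurons, and of Ddx21 (log2 fold change 0.67). They were joined by Nlrc3 (3.29, SE 2.09), Atf4 (0.76) and the receptor-associated kinase gene Tyk2, at 87.0 ± 45.1 CPM with fibril-loaded and 37.6 ± 5.84 CPM with untreated neurons. Nlrc3 was near the floor, at 0 to 35 counts with untreated neurons, and Dhx33 had 1 to 83 counts there. The log2 fold change of Nlrc3 ran from 1.63 to 8.03 over the fits that left out 1 library. On the lower side stood Sting1, at 33.3 ± 15.4 CPM with fibril-loaded and 55.2 ± 25.9 CPM with untreated neurons. Samhd1, which breaks down nucleotides (-0.39), Trim30a (-0.65) and the haem-regulated kinase gene Eif2ak1 (-0.83) also had negative log2 fold changes. The median over a list lay between -0.10 and 0.09 in all 6 lists.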

How the data were processed

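All 11 libraries were made with a 3′ end kit. The authors deposited raw counts by gene symbol. A second deposited table, taken as a score, holds those counts over a size factor for each library and rounded. STAR, Partek and DESeq2 with build mm10 appear, per the submitters' processing notes, and use of strand in counting is not given in the sources used here. Groups were taken from the treatment label, and libraries were numbered in the order of deposition. The main test was that of edgeR 4.0.16 (R 4.3.3) on raw counts: filterByExpr (11276 genes tested), TMM scaling, a quasi-likelihood model with a group term over the whole set of libraries, two-sided F tests, BH adjustment over all genes, threshold 0.05. SE is the log2 fold change over the square root of F. Total counts ran from 8253070 to 16802451. The code was tested on simulated data. Members, lists and tests were chosen with earlier results of these data known. The text names all members and, from each list, the genes that passed or else up to 2 with the smallest p, in each comparison; Cgas, Sting1 against microglia alone and Mndal were added after their values were seen. Some genes of the lists are counted in them but not reported by name here. Alternatives were RLE scaling, DESeq2 1.42.0, no low-count filter, a mean of at least 5 CPM, limma 3.58.1 on log2 of the normalized table plus 1, the 2 groups compared only, Rn45s left out, a block by library number and leaving out each library. Levels of different genes were not ranked, since a 3′ method counts transcript ends.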

Additional observations from a re-analysis of the deposited data

Results flagged for a closer look

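Zbp1 was at 105.1 CPM in library 1 with fibril-loaded neurons, against 18.7 to 25.6 CPM in the other 3 libraries of the group, and so stood far from them by Dixon's test. It was the 1 of 18 groups of 4 libraries tested (9 genes, with fibril-loaded neurons and in microglia alone) that did so, where chance gives about 1 in 20.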

How the results depend on the processing

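Against microglia alone, every member kept a positive log2 fold change in each alternative run. The members called higher with untreated neurons, 1 in the edgeR fit reported, were 2 with DESeq2 (Ddx58 and Zbp1), and 2 with no low-count filter and with a block by library number (Ddx58 and Ifi204), and 0 in the 2 groups only, in limma and at a mean of at least 5 CPM. They were 0 to 1 on leaving out 1 library. With fibril-loaded neurons against microglia alone DESeq2 and no filter called 1 member, Zbp1. Some partners named above that did not pass in the main fit passed in alternatives. With fibril-loaded neurons against microglia alone these were Ifi209 in 4 of 16 alternatives, Ifnar1 in 3, Ifi203 in 2 and Ifnar2 in 1. With untreated neurons against microglia alone Tnfaip3 passed in 1 of 15, and between the co-cultures Dhx33 in 1 of 15. Over all genes with untreated neurons, 52 higher and 20 lower became 183 and 308 with DESeq2, 155 and 79 with no filter and 28 and 13 in the 2 groups only, with 12 lower at a mean of at least 5 CPM and 25 to 62 higher and 4 to 21 lower without 1 library. For fibril-loaded neurons against microglia alone, 30 higher and 6 lower became 145 and 117 with DESeq2, 114 and 50 with no filter and 53 and 13 with the block, with 3 lower at the mean of at least 5 CPM and 2 to 5 lower without 1 library. Between the co-cultures 0 and 0 became 139 and 31 with DESeq2 and 5 higher with no filter, with 0 to 1 in either direction without 1 library; 298 genes higher and 147 lower had an unadjusted edgeR p below 0.05. There the sign of uncalled members turned: without untreated-neuron library 1 for Eif2ak2 (0.28) and the partner Samhd1 (0.22), library 2 for Mavs (0.46) or library 3 for Dhx58 (0.06) and Tbk1 (0.49), without fibril-loaded library 1 for Tbk1 (0.16) and Zbp1 (-0.50) or library 4 for Dhx58 (0.16), and for Mavs with the block (0.31). Leaving out 1 library spanned -0.58 to 0.28 for Eif2ak2, -0.71 to 0.22 for Samhd1, -0.48 to 0.46 for Mavs, -0.38 to 0.16 for Dhx58, -0.46 to 0.49 for Tbk1 and -0.50 to 0.69 for Zbp1. The cause was not tested. The block sets together libraries with neighbouring numbers in their titles, whose meaning is not stated; their deviations from group means correlated at a median of 0.05 over 10 pairs (-0.05 to 0.09), against -0.03 over 30 pairs from different sets (-0.10 to 0.08). No same-set pair was over 0.1, but this check cannot exclude a shared batch. The block was kept as an alternative only, since the labels state no batch. Depth sets a floor of 3 counts, 0.18 to 0.36 CPM, below every member's level.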
